A study of Homo sapiens with 12 samples.

Results

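The oxidative phosphorylation genes of both genomes were followed in CAL-27 and SCC-15, a pair of cell lines from squamous carcinoma of the mouth, with and without knockdown of TTK, a kinase of the mitotic spindle checkpoint. The members were chosen by gene symbol: the 13 mRNA genes and 2 rRNA genes whose symbols begin with MT-, which lie on the mitochondrial genome, and 41 nuclear genes for subunits of complexes I to IV. All 56 members were found among the 58735 lines of the count table, and all 56 were among the 16946 genes with enough reads to be tested. Poly(A) RNA was sequenced from 4 groups of 3 libraries: CAL-27 shControl, CAL-27 shTTK, SCC-15 shControl and SCC-15 shTTK. The labels call the control cells shControl in the titles and wild type and untreated elsewhere, so the presence of a control hairpin is not settled by them. They give no hairpin sequence, place every library in batch 1, and do not say whether the 3 libraries of a group were separate cultures. What the p-values measure is therefore the spread of these libraries alone, which may be technical.

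Oxidative phosphorylation passes electrons from NADH and succinate along a chain of complexes in the inner mitochondrial membrane and uses the resulting proton gradient to make ATP. Complexes I, III, IV and the ATP synthase (complex V) are built from proteins of both genomes, and complex II is wholly nuclear. The mitochondrial genes are transcribed as long precursors that are cut at tRNAs into single messages, and their products are the core of each complex. Nuclear subunits are made in the cytosol and imported, so the 2 sets of messages are produced, processed and degraded by separate machineries.

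Totals per library lay between 16176655 and 18484112 counts. All levels are TMM-scaled CPM, counts relative to the size of the library, and folds are log2 fold changes from edgeR's quasi-likelihood test with their standard error (SE). A gene was called when its Benjamini-Hochberg adjusted p over all tested genes was under 0.05. TTK itself was at 46.4, 48.4 and 53.4 CPM in the CAL-27 control libraries and 35.6, 32.5 and 33.5 with knockdown, and at 67.5, 69.4 and 72.9 against 26.9, 29.2 and 34.3 CPM in SCC-15, so the groups did not overlap in either line. All 10 squamous markers were detected in both lines, with KRT5 at 859 to 1960 CPM in CAL-27 and 2170 to 2690 in SCC-15. Low ones were KRT14, down to 2.79 CPM in CAL-27, and CDH1, at 23.1 to 42.5 CPM, and PKP1, at most 1.23 CPM, in SCC-15. Their sum was 3082 to 3268 CPM in CAL-27 controls and 5379 to 5440 CPM with knockdown. Of the 10, 9 rose and 1 fell there, beside 11.6% and 15.7% of all tested genes. In SCC-15 the sum was 7602 to 7929 against 7131 to 7155 CPM, but the markers were mixed. There 3 rose and 4 fell, beside 13.4% and 14.3% of all tested genes. The sum thus moved in the same direction as the mitochondrial share in each line, though single markers did not all do so. Its part in the results was not tested. Of the markers of other cell types, the fibroblast sum was 20.7 to 42.3 CPM over all libraries. Most of it was COL1A1, at 23.6 to 35.5 CPM in CAL-27 and 19.4 to 21.3 CPM in SCC-15. In CAL-27 PDGFRB was at 3.38 to 5.43 CPM, COL1A2 at 2.37 to 3.41 CPM and DCN at 0 counts. COL1A2 was at 0 counts in SCC-15. The leukocyte sum was at most 14.2 CPM, with CD3D and MS4A1 at 0 counts. In CAL-27 it was nearly all CD14, at 8.06 to 14 CPM and called higher with knockdown (0.46). The part of the fibroblast and leukocyte markers in the results was not tested. The endothelial sum, nearly all CDH5, was 102 to 110 CPM in CAL-27 controls and 72.4 to 74.4 CPM in CAL-27 shTTK, and at most 2.25 CPM in SCC-15, and its part in the results was not tested. Library 1 of either SCC-15 group was unlike libraries 2 and 3 in some of the mitochondrially encoded genes. The SCC-15 results of the mitochondrial genes are therefore given with and without the libraries numbered 1.

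The 15 mitochondrially encoded genes made up a larger share of the RNA in CAL-27 than in SCC-15, and the share moved in opposite directions with TTK knockdown in the 2 lines. They held 4.23%, 4.30% and 4.30% of all counts in the CAL-27 control libraries and 4.65%, 4.54% and 4.45% in the shTTK libraries, so every knockdown library was above every control. In SCC-15 they held 3.84%, 3.0% and 2.92% in the controls and 2.68%, 2.35% and 2.34% with knockdown, so every knockdown library was below every control, with or without the libraries numbered 1. In these bulk samples, fewer mitochondria or messages per cell and fewer cells of a given state cannot be told apart.

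The summed nuclear subunits rose with knockdown in CAL-27, as the mitochondrial share did, but did not separate the groups in SCC-15. Their summed level was 4956, 4987 and 4937 CPM in CAL-27 controls and 5229, 5238 and 5392 CPM with knockdown. Every knockdown library was thus above every control in that line. In SCC-15 it was 4757, 4886 and 4827 CPM in controls and 4890, 4831 and 4770 CPM with knockdown, 2 overlapping groups. The ratio of the 13 summed mitochondrial mRNAs to the 41 summed nuclear messages was therefore 8.17, 8.38 and 8.30 in CAL-27 controls and 8.32, 8.09 and 7.82 with knockdown, again overlapping. In SCC-15 the ratio was 6.57, 5.59 and 5.43 in controls and 5.18, 4.58 and 4.61 with knockdown, where the groups did not overlap. No p-value was given to these sums, since they are scores over chosen members.

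**Figure D1:**
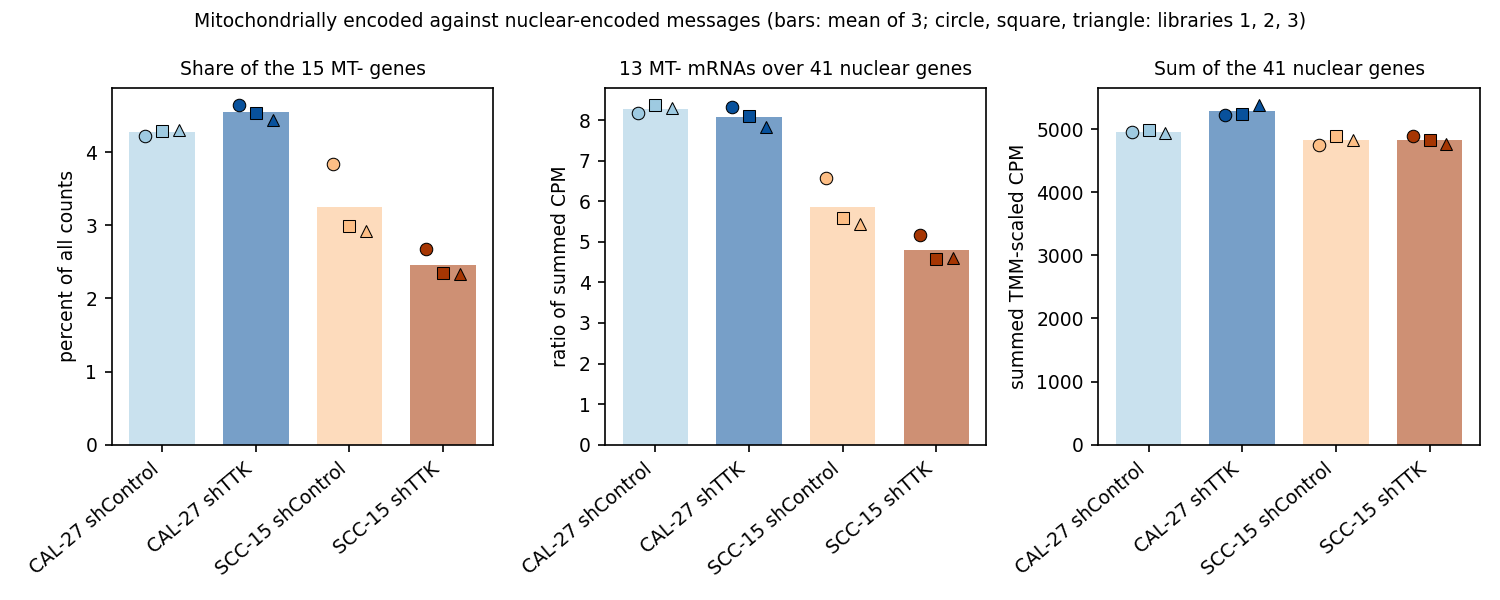
Share of counts from the 15 mitochondrially encoded genes (left, percent of all counts), ratio of the 13 mitochondrial mRNAs to the 41 nuclear genes (middle, summed CPM) and summed nuclear level (right, CPM) in each library; bars are means of 3 and marks are single libraries. In SCC-15 the share falls from 2.92% or more in controls to 2.68% or less with knockdown while the nuclear sum stays between 4757 and 4890 CPM, and library 1 (circle) is the highest of its SCC-15 group in share and ratio.

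Levels of the mitochondrial mRNAs differed widely along the same genome. Per kilobase of transcript, the CAL-27 controls held 7910 CPM of MT-CO1, 7218 of MT-CO3, 6618 of MT-CO2 and 5791 of MT-ATP6. These encode the 3 core subunits of cytochrome c oxidase (complex IV) and the proton channel subunit of the ATP synthase. MT-ND4, MT-ND4L and MT-ND3, membrane subunits of complex I, stood at 3797, 2974 and 2805 CPM per kilobase, and MT-CYB, the cytochrome b of complex III, at 2365. The lowest full-length messages were MT-ND5 at 748 and MT-ND6, the only mRNA of the other strand, at 558 CPM per kilobase. In the SCC-15 controls MT-ATP6 (4648), MT-CO3 (4579), MT-CO1 (4397) and MT-CO2 (4026) were again the highest, in another order and closer together, and MT-ND6 was the lowest of the full-length messages at 449. The read lengths, poly(A) selection and counting were the same for all libraries as far as the labels say, and how poly(A) selection captures each mitochondrial message was not tested.

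MT-ATP8, a small subunit of the ATP synthase, was listed at only 46.1 CPM per kilobase in CAL-27 controls. Its reading frame shares its last 46 bases with the start of MT-ATP6 on the same strand, which is 22.2% of its length, and the 2 proteins are translated from 1 message. The table gives MT-ATP8 1864 counts over the 12 libraries and MT-ATP6 687116, and how the counting assigned reads of the shared bases was not tested. The shared stretch is shown because it bears on every MT-ATP8 value; it is chrM:8517-8582, plus strand, GRCh38, read from GENCODE transcripts, with the bases of both genes in capitals.
MT-ATP8/MT-ATP6 overlap: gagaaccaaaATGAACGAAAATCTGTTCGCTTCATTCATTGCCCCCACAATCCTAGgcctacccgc
MT-ND4L and MT-ND4, also translated from 1 message, share only 7 bases, 2.36% of MT-ND4L, which had 154047 counts.

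**Figure D2:**
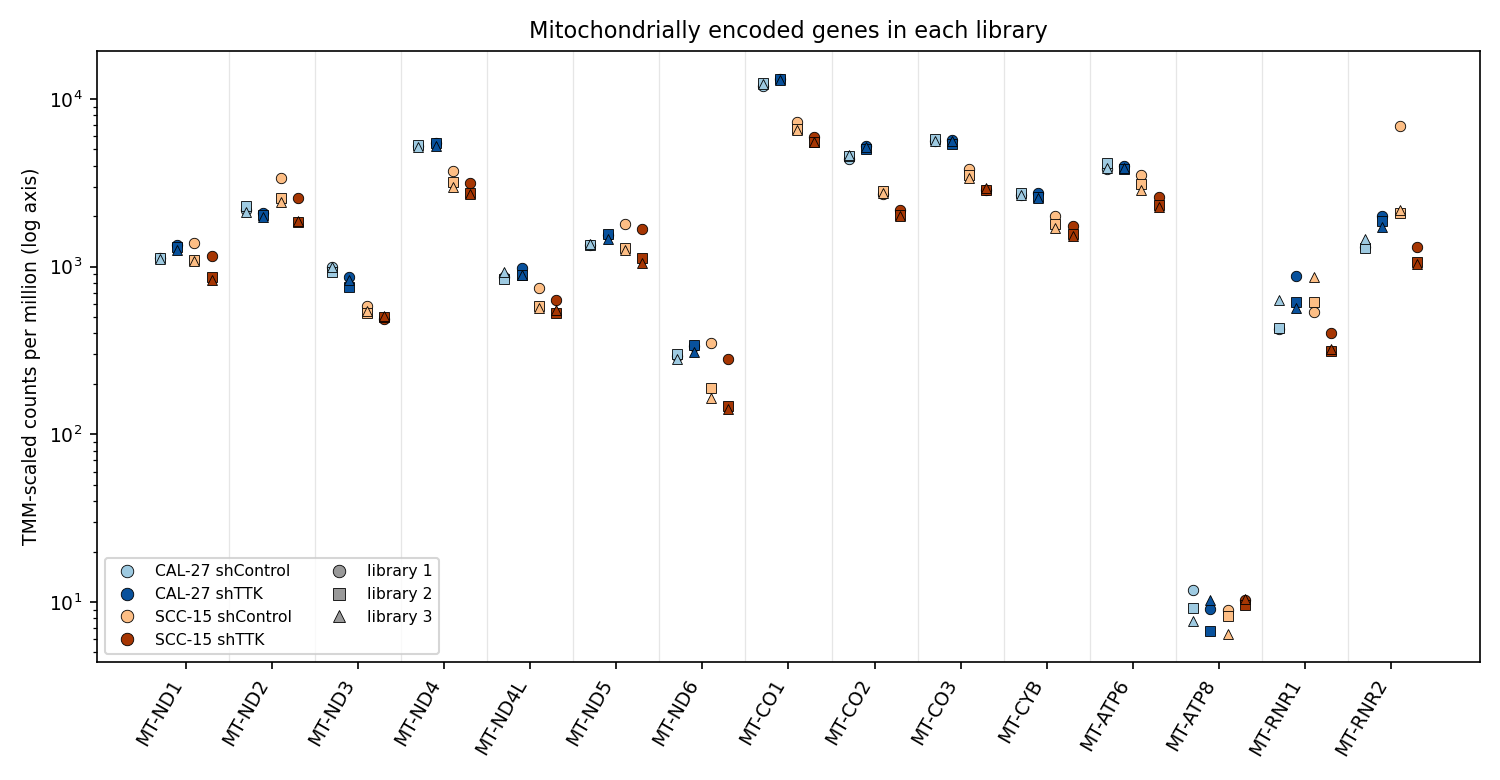
Level of each of the 15 mitochondrially encoded genes (vertical, TMM-scaled CPM, log axis) in the 12 libraries; colour gives the group and shape the library number. MT-CO1 is the highest at 5556 to 13235 CPM, MT-ATP8 the lowest at 6.5 to 11.7 CPM, and the SCC-15 circles (library 1) sit above the other marks of their group in MT-ND1, MT-ND2, MT-ND5 and MT-ND6.

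Between the control cells, most mitochondrial mRNAs were lower in SCC-15. Of the 13, 8 were lower and 0 higher than in CAL-27, where 38.2% of all tested genes were called lower and 37.8% higher, 76% together, and their median log2 difference was -0.48 against -0.01 over all tested genes. MT-CO1 stood at 11967, 12366 and 12259 CPM in CAL-27 and 7244, 6612 and 6487 CPM in SCC-15, a log2 difference of -0.85 ± 0.03 (SE; edgeR adjusted p = 7.45e-19). MT-ND3 was at 995, 925 and 991 CPM against 579, 527 and 541 CPM (-0.82 ± 0.05; edgeR adjusted p = 5.90e-11). The groups did not overlap for either gene, as for 8 lower and 2 higher of the 15, beside 39.1% and 38.2% of all tested genes (77.3% together). MT-CO2 (-0.72), MT-ND4 (-0.66), MT-CO3 (-0.66), MT-CYB (-0.56), MT-ND4L (-0.48) and MT-ATP6 (-0.32) were lower as well.

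The large rRNA of the mitochondrial ribosome, MT-RNR2, went the other way, and 1 library carried much of the difference. It was at 1313, 1292 and 1466 CPM in CAL-27 controls and 6849, 2084 and 2190 CPM in SCC-15 controls (log2 difference 1.45 ± 0.43; edgeR adjusted p = 0.013). Control library 1 of SCC-15 was above all others, and without the SCC-15 libraries numbered 1 the difference was 0.66 ± 0.08 (edgeR adjusted p = 0.000228). Without those libraries 11 of the 13 mRNAs were called lower in SCC-15 (36.5% of 17344 tested genes were), and the exceptions were MT-ND1, which was not called (-0.04), and MT-ND2, which was higher by 0.18 ± 0.03. Mature mitochondrial rRNAs carry only short A tails, so their level in poly(A)-selected RNA is not their level in the cell.

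With TTK knockdown in CAL-27, few mitochondrial mRNAs were called and the changes were small. Of the 13, 2 rose and 1 fell, where 11.6% of all tested genes rose and 15.7% fell (27.3% together), and their median log2 fold change was 0.04 against -0.01 over all tested genes. MT-CO2, the subunit that receives electrons from cytochrome c, rose from 4404, 4555 and 4620 to 5205, 5037 and 5148 CPM (0.18 ± 0.03; edgeR adjusted p = 9.98e-08). MT-CO1, the catalytic subunit with its haem groups, rose from 11967, 12366 and 12259 to 13235, 13193 and 13034 CPM (0.11 ± 0.03; edgeR adjusted p = 0.0101), a call that was lost without control library 1 (adjusted p = 0.0765) or shTTK library 2 (0.0748). MT-ND3 fell from 995, 925 and 991 to 866, 752 and 834 CPM (-0.25 ± 0.05; edgeR adjusted p = 0.000711). In each of these 3 genes every knockdown library lay beyond every control library.

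Further mitochondrial genes had groups that did not overlap in CAL-27 without being called in the fit over both lines. In all, 6 of the 15 were higher and 2 lower with no overlap, beside 17.1% and 21.3% of all tested genes (38.4% together). MT-ND1, the quinone-site subunit of complex I, was at 1131, 1131 and 1110 CPM in controls and 1348, 1307 and 1251 CPM with knockdown (0.21 ± 0.13; edgeR adjusted p = 0.311). MT-ND5, MT-ND6 and MT-RNR2 were also higher, and MT-ND2 lower, in every knockdown library. Their standard errors rest on all 12 libraries, in which the SCC-15 libraries numbered 1 differ from the rest of their groups. With CAL-27 fitted alone, edgeR called 6 of the 15 genes higher and 2 lower: MT-ND1 (0.23; adjusted p = 1.79e-09), MT-ND5 (0.19), MT-ND6 (0.18), MT-RNR2 (0.48), MT-CO1 and MT-CO2 rose, and MT-ND3 (-0.23) and MT-ND2 (-0.10; adjusted p = 0.00606) fell. The counts were also 6 and 2 with both lines in the fit and the SCC-15 libraries numbered 1 left out. For these other fits the shares of all tested genes are not given here, and those above belong to the main fit.

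In SCC-15 the mitochondrial genes were lower with knockdown. Of the 15, 7 fell and 1 rose, where 14.3% of all tested genes fell and 13.4% rose (27.7% together). Over the 13 mRNAs the counts were 5 and 1, with a median log2 fold change of -0.25 against 0 over all tested genes, and 12 of the 13 had a negative value. The largest called decrease among the mRNAs was in MT-CO2, from 2695, 2811 and 2754 to 2184, 2019 and 2003 CPM (-0.41 ± 0.03; edgeR adjusted p = 2.20e-21). MT-CO3 fell from 3846, 3537 and 3386 to 2879, 2874 and 2956 CPM (-0.31 ± 0.03; edgeR adjusted p = 1.14e-09), and MT-CO1 from 7244, 6612 and 6487 to 5937, 5564 and 5556 CPM (-0.25 ± 0.03; edgeR adjusted p = 4.64e-07). In all 3 core subunits of complex IV every knockdown library was below every control library. Groups without overlap were found for 1 higher and 7 lower of the 15 genes, beside 19.3% and 19.6% of all tested genes (38.9% together). The number called lower was 4 without shTTK library 2 or 3.

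MT-ATP6 fell from 3505, 3113 and 2879 to 2609, 2324 and 2254 CPM (-0.40 ± 0.08; edgeR adjusted p = 0.0049), and this was short of the threshold with SCC-15 fitted alone (0.0508). MT-ND3 was called lower at the edge of the threshold (-0.13 ± 0.05; edgeR adjusted p = 0.0475), from 579, 527 and 541 to 489, 502 and 510 CPM, and the call did not hold in 12 of 20 alternatives, among them each fit that left out an SCC-15 library other than control library 2. MT-ATP8 was called higher, from 8.9, 8.2 and 6.5 to 10.3, 9.6 and 10.4 CPM (0.36 ± 0.14; edgeR adjusted p = 0.0487), and 8 of 20 alternatives lost it, among them the fits without control library 2 or 3 or any shTTK library of SCC-15 and without CAL-27 shTTK library 1 (adjusted p up to 0.266). The part of the shared bases shown above in this value was not tested.

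The other 6 complex I messages and MT-CYB were lower on average in SCC-15 with knockdown and were not called in the main fit. With a replicate block edgeR called all of them lower, among them MT-ND2 (adjusted p = 1.12e-21) and MT-ND1 (3.04e-16). The share of all tested genes called with the block is not given here. The labels do not say that a library number marks a shared culture, so the main fit has no block. MT-ND2 was at 3359, 2557 and 2420 CPM in controls and 2569, 1845 and 1872 CPM with knockdown (-0.41 ± 0.16; edgeR adjusted p = 0.0912). MT-ND1 was at 1389, 1103 and 1082 against 1150, 862 and 838 CPM (-0.33 ± 0.13; edgeR adjusted p = 0.115). In both, library 1 of each group was the high value, and the library 1 with knockdown overlapped control libraries 2 and 3.

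The SCC-15 libraries numbered 1 held more of some mitochondrial messages than of others. Relative to the mean of libraries 2 and 3, control library 1 was higher by 0.98 (log2) for MT-ND6, 0.50 for MT-ND5, 0.43 for MT-ND2 and 0.35 for MT-ND1, and shTTK library 1 by 0.96, 0.62, 0.47 and 0.44 for the same genes. For MT-CO1 the 2 values were 0.15 and 0.09, and for MT-CO2 -0.05 and 0.12. The ratio of the 7 complex I to the 3 complex IV messages was 0.868, 0.728 and 0.715 in SCC-15 controls and 0.904, 0.744 and 0.730 with knockdown, so that library 1 was highest in each, whereas it was 0.532 to 0.548 in CAL-27 controls and 0.502 to 0.523 with knockdown. For MT-RNR2 only control library 1 was far out, at 1.68 against 0.32 for shTTK library 1.

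Leaving out both SCC-15 libraries numbered 1 kept the direction of the decrease and raised the number of called genes. This fit compares 2 control with 2 knockdown libraries in SCC-15. The libraries left out stood out in some of these same genes. Smaller standard errors and more calls thus follow from leaving them out and are not separate support. Of the 15 genes 12 fell and 0 rose, where 11% of the 17344 genes then tested fell and 10.1% rose, and 10 of the 13 mRNAs fell with a median of -0.23. MT-ND2 fell by 0.42 ± 0.03 (edgeR adjusted p = 1.18e-12), MT-ND1 by 0.36 ± 0.03 (1.77e-15), MT-ND6 by 0.30 ± 0.06 (0.00227), MT-ND5 by 0.22 ± 0.03 (8.06e-08), MT-CYB by 0.18 ± 0.03 and MT-ND4 by 0.17 ± 0.03. MT-CO2 (-0.47), MT-CO1 (-0.23), MT-CO3 (-0.25) and MT-ATP6 (-0.39) remained lower. MT-ND3 (-0.08), MT-ND4L (-0.10) and MT-ATP8 (0.45) were not called. The standard error of MT-ND1 was 0.13 with all libraries and 0.03 without these 2.

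**Figure D3:**
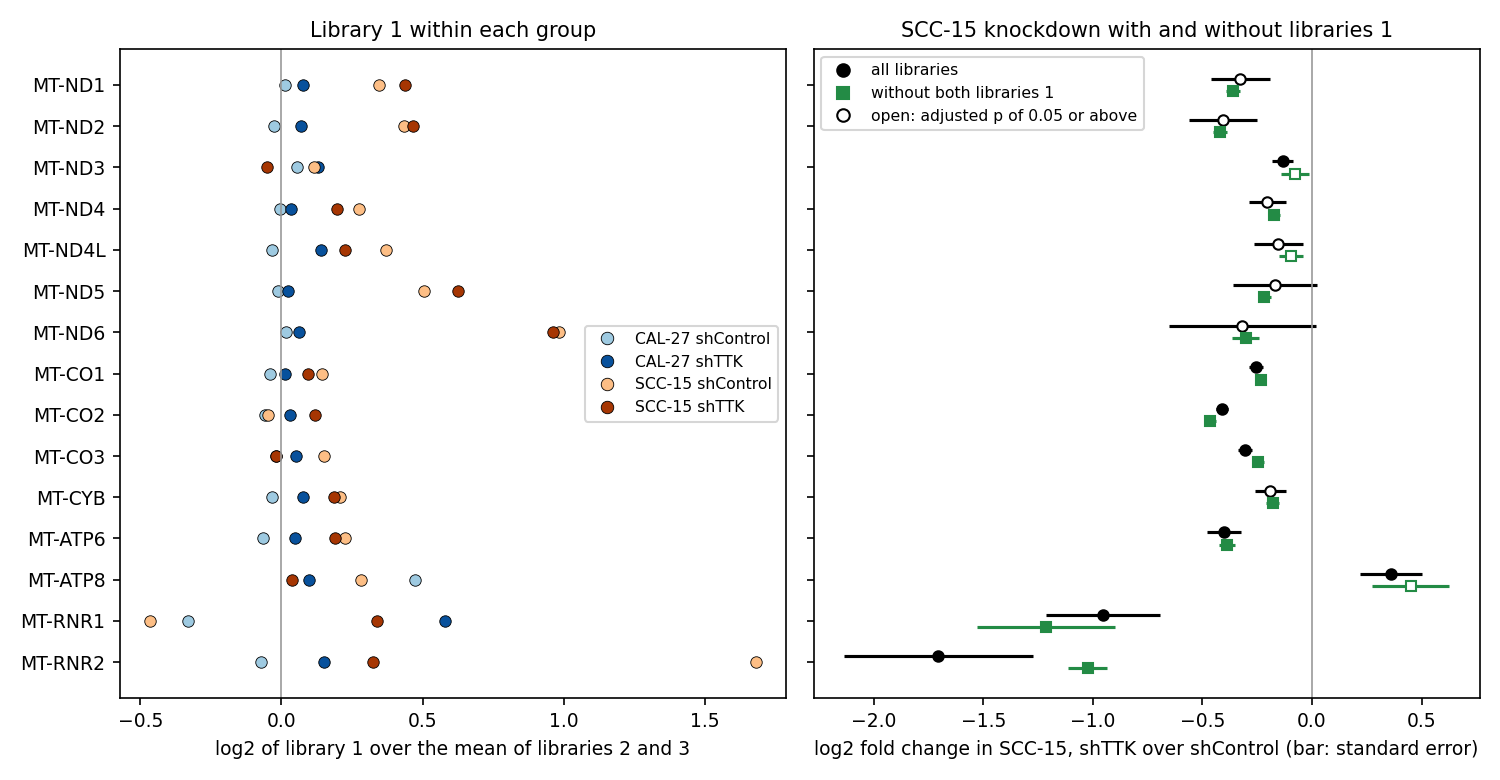
Left, log2 of library 1 over the mean of libraries 2 and 3 for each mitochondrially encoded gene in the 4 groups. Right, log2 fold change in SCC-15 (shTTK over shControl, bars are standard errors) with all libraries (circles) and without both libraries numbered 1 (squares), filled where the adjusted p is under 0.05. The orange and brown points of MT-ND5 and MT-ND6 lie at 0.50 to 0.98 while the CAL-27 points lie near 0, and the squares of MT-ND1 and MT-ND2 stay at -0.36 and -0.42 with shorter bars.

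Both mitochondrial rRNAs were lower with knockdown in SCC-15. MT-RNR2 was at 6849, 2084 and 2190 CPM in controls and 1315, 1065 and 1034 CPM with knockdown (-1.70 ± 0.43; edgeR adjusted p = 0.0181). The highest control library set part of that size: the change was -0.91 without control library 1 and -1.02 ± 0.09 without both libraries numbered 1 (edgeR adjusted p = 0.000243). The call was lost with SCC-15 fitted alone (0.113) and without shTTK library 2 (0.0657) or 3 (0.0644). MT-RNR1, the small rRNA, was at 537, 617 and 864 CPM in controls and 404, 314 and 324 CPM with knockdown (-0.95 ± 0.26; edgeR adjusted p = 0.025), and at -1.21 ± 0.31 without both libraries numbered 1 (0.0392). Its call was lost without control library 3 (0.0882), shTTK library 2 (0.0885) or shTTK library 3 (0.0811), and with no count filter (0.0577). In CAL-27, MT-RNR1 was at 424, 433 and 634 CPM in controls and 880, 612 and 565 CPM with knockdown, overlapping groups, and was not called (0.47 ± 0.26; adjusted p = 0.239).

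The 2 knockdown changes differed between the lines in 6 of the 15 mitochondrial genes, all with the lower value in SCC-15, where 12.1% of all tested genes had a lower and 13.3% a higher change in SCC-15 (25.4% together). The differences (SCC-15 change minus CAL-27 change) were -0.59 ± 0.04 for MT-CO2 (edgeR adjusted p = 1.17e-21), -0.36 ± 0.04 for MT-CO1 (4.51e-07), -0.28 ± 0.04 for MT-CO3 (5.92e-06), -0.38 ± 0.11 for MT-ATP6 (0.0364), -1.42 ± 0.36 for MT-RNR1 (0.0208) and -2.16 ± 0.60 for MT-RNR2 (0.0302). Those of MT-CO1, MT-CO2 and MT-CO3 passed in all 19 alternatives, and they were the 3 left without CAL-27 control library 1 or SCC-15 shTTK library 2 or 3. The others were lost in some: MT-ATP6 in 10 of 19, MT-RNR1 in 4 and MT-RNR2 in 9, each including fits without 1 library of CAL-27 control, with adjusted p up to 0.0884, 0.0531 and 0.0706. Without the SCC-15 libraries numbered 1, 12 of the 15 had a lower change in SCC-15, where 10.4% of the 17344 genes then tested had a lower and 11.9% a higher one, and 10 of them were mRNAs, with a median of -0.30 over the 13.

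The 41 nuclear members were called in both directions in each line. In CAL-27, 14 rose and 4 fell (34.1% and 9.76%, beside 11.6% and 15.7% of all tested genes), with a median of 0.06, and 2 fell without control library 2 or shTTK library 3. In SCC-15, 11 rose and 7 fell (26.8% and 17.1%, beside 13.4% and 14.3%), with a median of 0.02, and 7 rose without control library 1. Across the 2 lines, 5 rose in both, 3 fell in both, 2 moved in opposite directions, 8 were called only in the CAL-27 contrast, 8 only in the SCC-15 contrast and 15 in neither. The share of all tested genes called in both lines was not counted, so whether these joint counts are particular to the members is not known. Without the SCC-15 libraries numbered 1, 6 rose and 9 fell in that line, with a median of -0.0014, where 10.1% of all genes then tested rose and 11% fell.

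**Figure D4:**
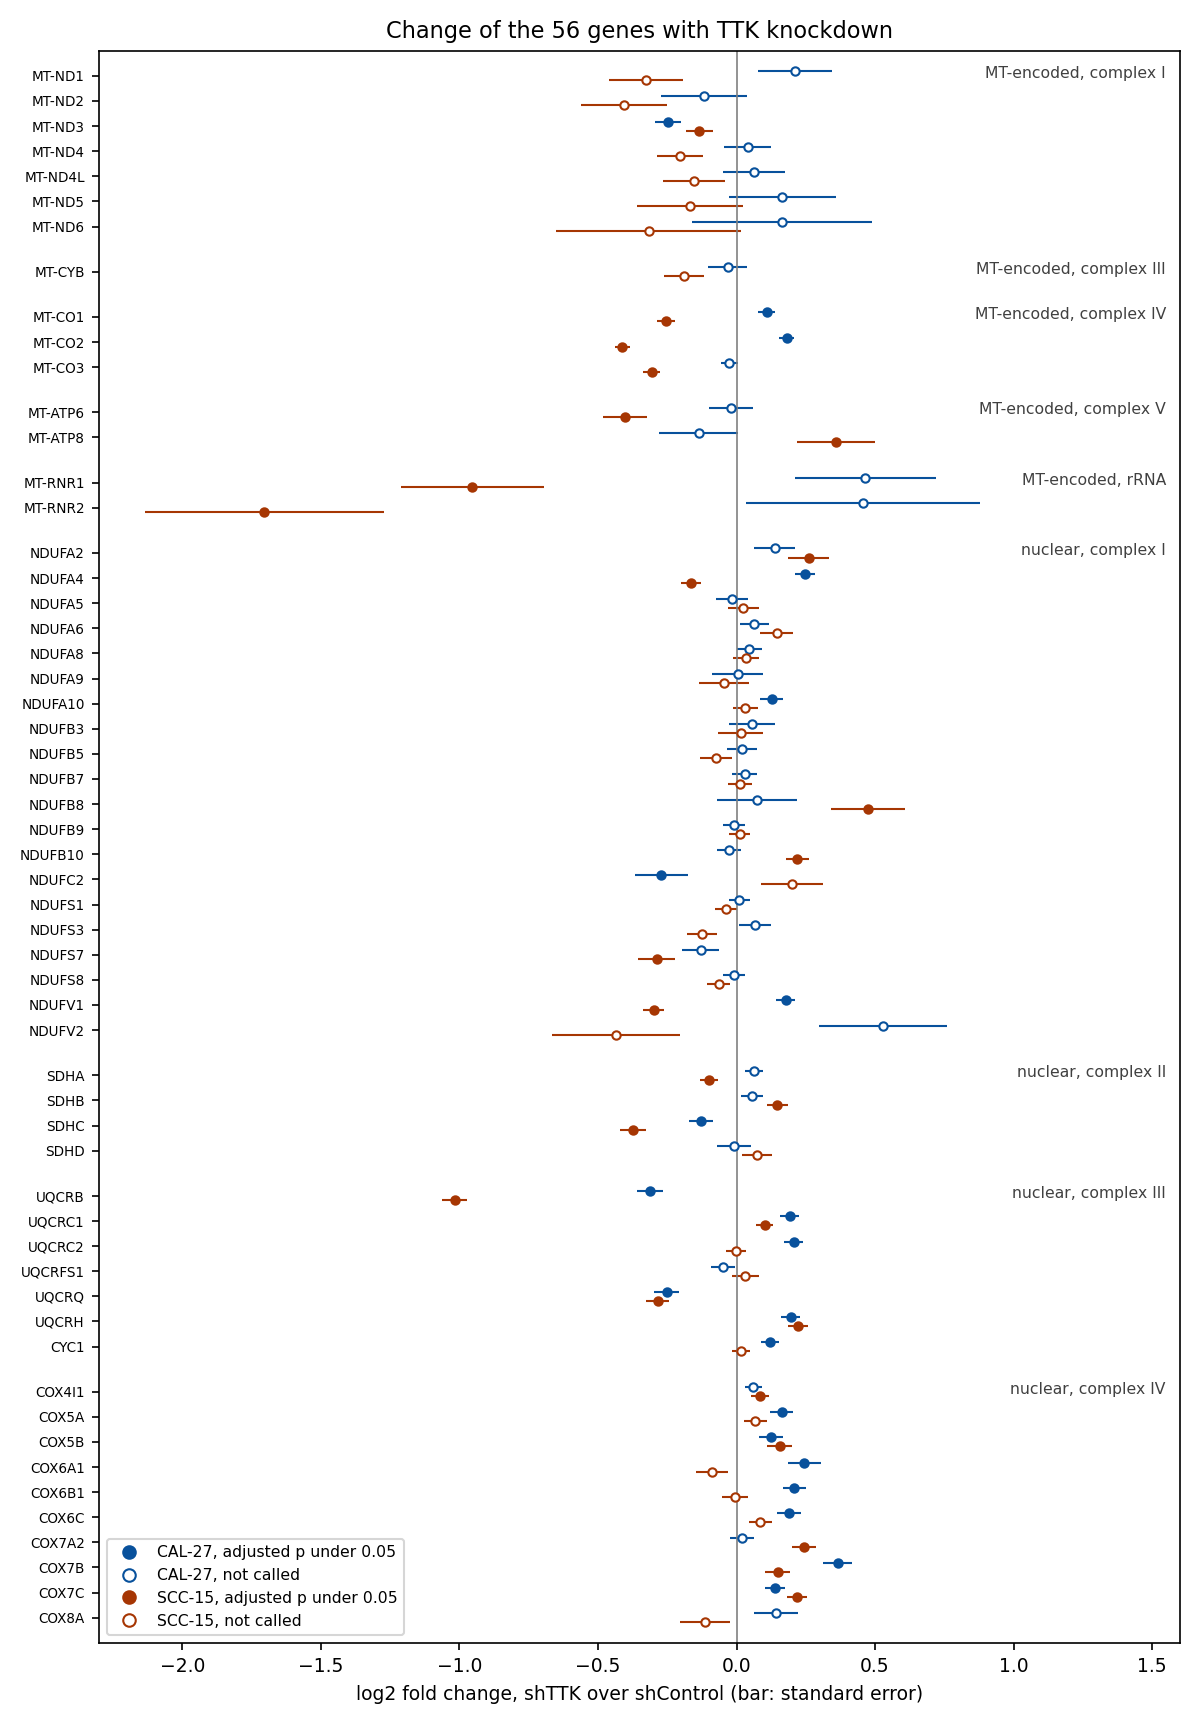
Log2 fold change (shTTK over shControl, bars are standard errors) of the 56 genes, grouped by genome and complex, in CAL-27 (blue) and SCC-15 (brown); filled circles have an adjusted p under 0.05. The mitochondrially encoded SCC-15 points lie left of 0 except MT-ATP8, the nuclear complex IV points lie mostly right of 0 in both lines, and UQCRB is the farthest nuclear point at -1.02.

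Complex I, the entry point of electrons from NADH, was represented by 20 nuclear genes, with NDUFA4 counted among them by its name. In CAL-27, 3 rose and 1 fell (15% and 5%, beside 11.6% and 15.7% of all tested genes). In SCC-15, 3 rose and 3 fell. The SCC-15 shares of 15% each way are near the 13.4% and 14.3% of all tested genes. Its NADH-binding flavoprotein subunit NDUFV1 (chromosome 11) was among those that moved oppositely. NDUFV1 was at 255, 255 and 243 CPM in CAL-27 controls and 281, 281 and 290 CPM with knockdown (0.18 ± 0.03; edgeR adjusted p = 2.50e-05). In SCC-15 it was at 153, 165 and 166 CPM against 131, 136 and 127 CPM (-0.30 ± 0.04; edgeR adjusted p = 3.82e-10). The groups did not overlap in either line, and the changes differed by -0.48 ± 0.05 (edgeR adjusted p = 2.09e-12).

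NDUFA4, listed with complex I by its name and since assigned to complex IV, did the same. It rose from 192, 180 and 194 to 224, 219 and 228 CPM in CAL-27 (0.25 ± 0.04; edgeR adjusted p = 2.55e-08). The SCC-15 libraries showed a fall from 152, 160 and 154 to 142, 137 and 137 CPM (-0.16 ± 0.04; edgeR adjusted p = 0.000262). The difference was -0.41 ± 0.05 (edgeR adjusted p = 5.26e-10), and no groups overlapped.

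The remaining called complex I genes were called in 1 line. In SCC-15 NDUFB10, a membrane-arm accessory subunit, rose from 99.9, 102 and 100.3 to 120, 117 and 114 CPM (0.22 ± 0.04; edgeR adjusted p = 1.60e-05), and NDUFS7, an iron-sulfur subunit next to the quinone site, fell from 35.7, 37.0 and 36.1 to 28.6, 30.6 and 29.8 CPM (-0.29 ± 0.07; edgeR adjusted p = 0.000467). NDUFA2 (0.26) and NDUFB8 (0.47) were called higher in SCC-15 but not without shTTK library 1, and NDUFB8 not without control library 1 either (adjusted p up to 0.148 and 0.386). In CAL-27 NDUFA10 (0.13) was the third to rise, lost without control library 3 or shTTK library 3 (adjusted p up to 0.149), and NDUFC2 (-0.27) fell with overlapping groups, a call that needed control libraries 2 and 3 and shTTK library 3 (adjusted p up to 0.214 without one of them) and was also lost with DESeq2 (0.0646). NDUFC2 differed between lines (0.47 ± 0.15; edgeR adjusted p = 0.0115), and so did NDUFV2 (-0.96 ± 0.33; 0.0206), whose 538 counts over all libraries and 28.4% of exon bases shared with a neighbouring annotated gene make it uncertain. NDUFB8 and NDUFC2 share 33.8% and 16.3% of their exon bases in the same way, and reads in shared bases can be lost in counting. Of the exon bases of NDUFS7, 49.1% lie opposite other genes on the other strand, and the strand setting of the counting is not given. NDUFA5, NDUFA6, NDUFA8, NDUFA9, NDUFB3, NDUFB5, NDUFB7, NDUFB9, NDUFS1, NDUFS3 and NDUFS8 were called in neither line.

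Complex II, succinate dehydrogenase, feeds electrons from the citric acid cycle into the chain through 4 nuclear subunits. Its haem-binding membrane anchor SDHC (chromosome 1) was lower in both lines. In SCC-15 SDHC fell from 85.4, 82.7 and 83.2 to 64.8, 66.9 and 62.4 CPM (-0.37 ± 0.05; edgeR adjusted p = 2.75e-10). In CAL-27 the fall was smaller, from 113, 114 and 115 to 105, 108 and 98.3 CPM (-0.13 ± 0.04; edgeR adjusted p = 0.0161), and that call was lost without control library 2, shTTK library 1 or 3, or SCC-15 control library 2 or 3 (adjusted p up to 0.314). The difference between the lines was -0.24 ± 0.06 (edgeR adjusted p = 0.00158). The iron-sulfur subunit SDHB rose in SCC-15 (0.15), the flavoprotein SDHA fell there (-0.10, overlapping groups, lost in 6 of 20 alternatives), and the anchor SDHD was not called.

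Complex III, the cytochrome bc1 complex, held the nuclear gene with the largest called change. UQCRB (chromosome 8), a subunit beside the quinone-binding pocket, fell from 137, 141 and 143 to 63.6, 71.7 and 72.3 CPM in SCC-15 (-1.02 ± 0.05; edgeR adjusted p = 1.49e-31). In CAL-27 it fell from 90.7, 90.5 and 94.1 to 78.3, 69.7 and 74.0 CPM (-0.31 ± 0.05; edgeR adjusted p = 9.46e-08). Control levels were higher in SCC-15 by 0.61 ± 0.04 and the knockdown levels of the lines overlapped, and the change was larger in SCC-15 by -0.71 ± 0.06 (edgeR adjusted p = 6.86e-15). The call in each line held in all 20 alternatives. Pseudogene copies of UQCRB held 0.186% of the counts of gene and copies.

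Its neighbours in the complex went both ways. UQCRQ, a small subunit that contacts cytochrome b, fell from 112, 108 and 118 to 95.9, 86.3 and 101 CPM in CAL-27 (-0.25 ± 0.04; edgeR adjusted p = 3.22e-06) and from 139, 135 and 134 to 113, 109 and 112 CPM in SCC-15 (-0.29 ± 0.04; edgeR adjusted p = 8.11e-08). UQCRH, the hinge protein that sits beside cytochrome c1, rose from 145, 151 and 149 to 171, 165 and 173 CPM in CAL-27 (0.20 ± 0.04; edgeR adjusted p = 9.38e-06) and from 179.8, 179.7 and 185 to 213, 208 and 214 CPM in SCC-15 (0.22 ± 0.03; edgeR adjusted p = 2.83e-07). UQCRC1, a core subunit on the matrix side, rose from 203, 196 and 198 to 223, 226 and 234 CPM in CAL-27 (0.19 ± 0.03; edgeR adjusted p = 2.83e-06) and from 358, 363 and 342 to 383, 380 and 377 CPM in SCC-15 (0.10 ± 0.03; edgeR adjusted p = 0.00994). None of these groups overlapped, 20.8% of the exon bases of UQCRQ lie opposite GDF9 on the other strand, and only the SCC-15 rise of UQCRC1 was lost in an alternative, without control library 3 (adjusted p = 0.0922). UQCRC2, the second core subunit, rose in CAL-27 (0.21 ± 0.04; edgeR adjusted p = 2.16e-06) and stood at -0.0030 in SCC-15, a difference of -0.21 ± 0.05 (edgeR adjusted p = 0.000734). CYC1, cytochrome c1, rose in CAL-27 (0.12), and UQCRFS1, the Rieske iron-sulfur protein, was called in neither line.

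**Figure D5:**
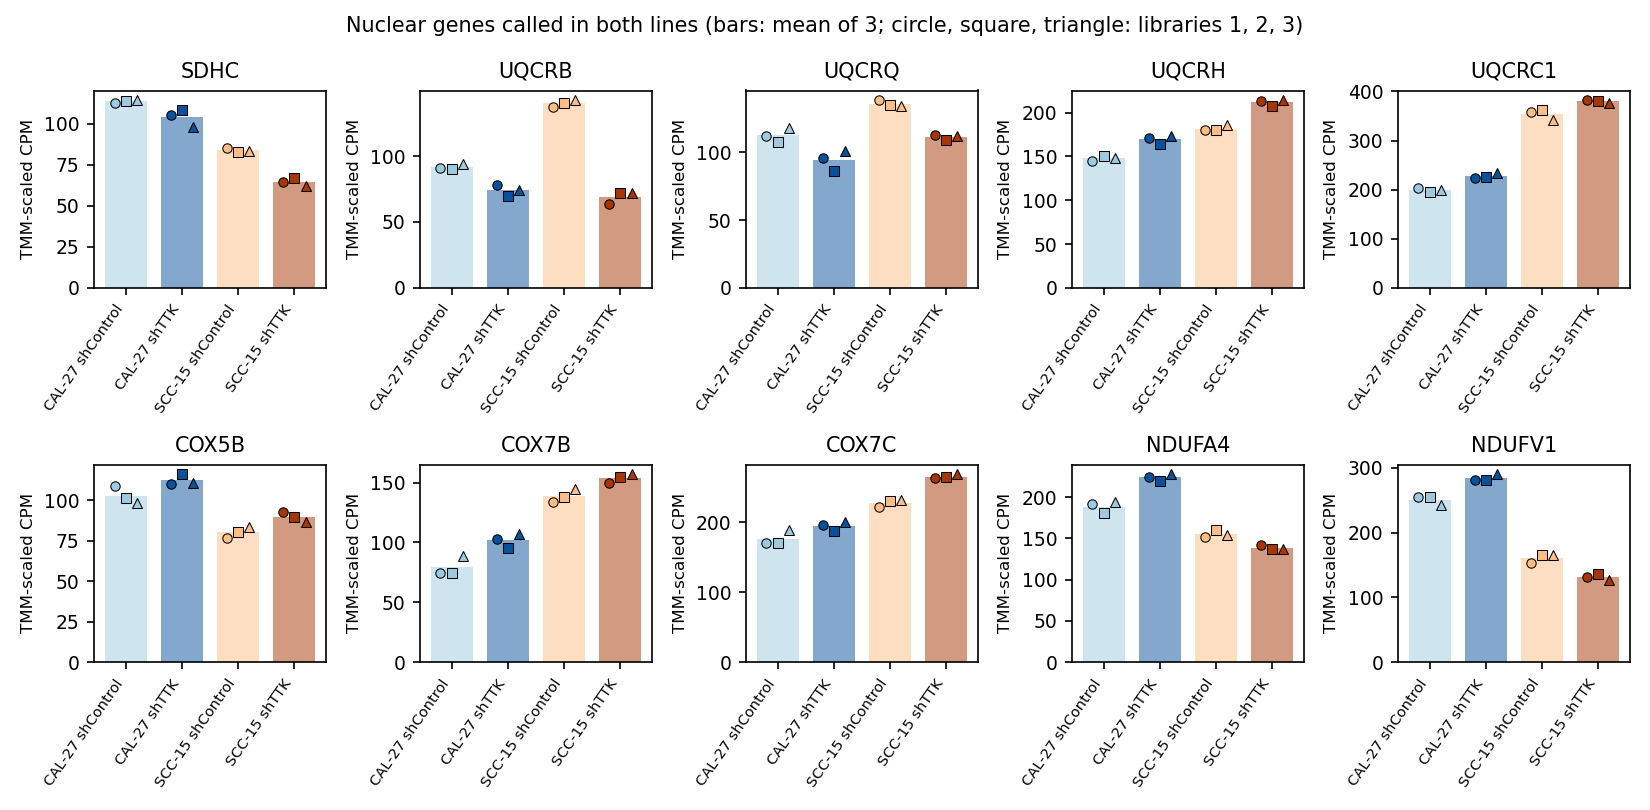
Level (TMM-scaled CPM, axis from 0) of the 10 nuclear genes called in both knockdown contrasts; bars are means of 3 libraries and marks are libraries 1, 2 and 3. UQCRB drops from 137 to 143 CPM in SCC-15 controls to 63.6 to 72.3 CPM with knockdown, while NDUFA4 and NDUFV1 rise in CAL-27 and fall in SCC-15.

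Promoters were examined for these members because nuclear subunits moved both ways within a complex. Of the 41 nuclear members, 33 had a promoter in RefSeq's table (GRCh38.p14), 250 bases before to 50 after the start. Motifs of 3 factor families known from respiratory-chain promoters were searched on both strands: GCGCA, any base, then GCGC for NRF1, CCGGAAGT for ETS factors such as GABP, and AAGATGGC for YY1, none of which overlapped in a member. The table holds 38 promoters for these 33 genes. Each motif was found in 6 of the 38 (15.8%), beside 5.78%, 4.14% and 2.89% of all 35116 promoters in the table, and 15 (39.5%) held at least 1, beside 11.7% of all. The windows of 4 complex III genes, chosen after their values were seen, with the match in capitals and the gene's strand written 5′ to 3′, show that the same motif stood in genes that rose, fell or were not called.
UQCRH, ETS, chr1:46303640-46303669, plus strand: gagtgtgccgcACTTCCGGccagatcgccg
UQCRQ, ETS, chr5:132866577-132866606, plus strand: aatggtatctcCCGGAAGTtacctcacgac
UQCRC1, NRF1, chr3:48609674-48609703, minus strand: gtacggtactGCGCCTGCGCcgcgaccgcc
UQCRFS1, NRF1, chr19:29213163-29213192, minus strand: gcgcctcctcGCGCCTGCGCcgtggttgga
UQCRH rose and UQCRQ fell in both lines with an ETS match 47 and 54 bases before the start, and UQCRC1 rose while UQCRFS1 was not called with NRF1 matches 47 and 31 bases before it. UQCRC1 also held a YY1 match 23 bases after the start, and UQCRFS1 held no YY1 match. Each printed window overlaps at least 1 annotated exon. A match is a description of these letters only.

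Complex IV, cytochrome c oxidase, passes electrons to oxygen, and its nuclear subunits surround the 3 mitochondrial core proteins. NDUFA4, counted above with complex I by its name, was called higher in CAL-27 (0.25) and lower in SCC-15 (-0.16). The counts given here leave it out. Of all tested genes, 11.6% rose and 15.7% fell in CAL-27, and 13.4% rose and 14.3% fell in SCC-15. Of 10 other nuclear members, 7 rose and 0 fell in CAL-27 and 5 rose and 0 fell in SCC-15, with medians of 0.15 and 0.09. Without the SCC-15 libraries numbered 1, 2 rose in that line (COX7A2 and COX7C) and 2 fell, COX6A1 (-0.18; edgeR adjusted p = 0.0242) and COX8A (-0.24; 0.0385). In SCC-15 all 3 mitochondrial members of this complex fell, and 7 of the 10 nuclear members had a positive value. COX7B, a small membrane subunit, rose from 74.5, 74.7 and 88.5 to 103, 95.6 and 107 CPM in CAL-27 (0.36 ± 0.05; edgeR adjusted p = 4.10e-07) and from 134, 138 and 144 to 149, 155 and 157 CPM in SCC-15 (0.15 ± 0.05; edgeR adjusted p = 0.0144). Its SCC-15 call was lost without control library 1 (adjusted p = 0.0925) or shTTK library 3 (0.0775).

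COX7C, another small membrane subunit, rose from 222, 230.5 and 232 to 263, 265 and 269 CPM in SCC-15 (0.22 ± 0.04; edgeR adjusted p = 5.36e-07) and, with overlapping groups, by 0.14 ± 0.04 in CAL-27 (edgeR adjusted p = 0.00206). COX5B, a zinc-binding subunit on the matrix side, rose by 0.13 in CAL-27 and 0.16 in SCC-15. Both COX5B calls were lost when 1 library was left out: control library 3 (adjusted p = 0.167) or shTTK library 2 (0.15) in CAL-27, and control library 1 (0.0582) in SCC-15. COX6A1 (0.25), COX6B1 (0.21), COX6C (0.19) and COX5A (0.16) rose in CAL-27, and COX6A1 (-0.33 ± 0.08; edgeR adjusted p = 0.00233) and COX6B1 (-0.21 ± 0.06; 0.00575) differed between lines. In SCC-15 COX7A2 rose from 89.7, 91.1 and 91.8 to 106, 106 and 110 CPM (0.24 ± 0.04; edgeR adjusted p = 2.53e-06), and the lines differed by 0.22 ± 0.06 (0.00232). Copies of COX7A2 elsewhere in the genome held 38% of the counts of gene and copies, so its level is uncertain. COX4I1 was called higher in SCC-15 (0.09) but in 5 of 20 alternatives it was not, and COX8A was called in neither line.

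Between the control cells, the nuclear members differed in equal numbers each way: 17 were higher and 17 lower in SCC-15, shares of 41.5% that lie near those of all tested genes (37.8% and 38.2%), with a median of 0.03. UQCRC1 (0.83), COX7B (0.81), SDHD (0.61), UQCRB (0.61) and COX6C (0.52) had the largest higher values. COX8A, the smallest subunit of complex IV, was at 301, 304 and 259 CPM in CAL-27 and 117, 132 and 130 CPM in SCC-15 (-1.19 ± 0.09; edgeR adjusted p = 9.62e-07). NDUFC2 (-1.16), COX6B1 (-0.86), NDUFA6 (-0.72) and UQCRFS1 (-0.71) were the next lowest. COX8A shares 34.5% of its exon bases with a neighbouring gene that had 3 counts in all.

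Other subunits and the machinery that makes and assembles the complexes were counted from lists of genes outside the 56. These counts stand beside 11.6% higher and 15.7% lower of all tested genes in CAL-27 and 13.4% and 14.3% in SCC-15. Of 18 nuclear ATP synthase subunits, 7 rose and 1 fell in CAL-27 (38.9% and 5.56%) and 7 rose and 4 fell in SCC-15 (38.9% and 22.2%; 3 and 4 without the libraries numbered 1). Among them ATP5F1B, the catalytic beta subunit, rose in CAL-27 (0.18) and fell in SCC-15 (-0.09), and ATP5MC3, a c-ring subunit, rose in both (0.26 and 0.10). Of 18 further complex I subunits, 1 rose and 1 fell in CAL-27, 5.56% each and under the shares of all tested genes, and 7 rose and 1 fell in SCC-15 (5 and 1 without the libraries numbered 1). Of 6 tested further subunits of complexes III and IV and cytochrome c, 0 were called in CAL-27. In SCC-15, 4 rose (3 without the libraries numbered 1), among the 4 UQCR11 (0.31) and COX7A2L (0.26). In CAL-27 UQCR11 was at -0.14 (edgeR adjusted p = 0.133).

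Genes that assemble the chain and process its RNA were called in both directions, and the same shares of all tested genes apply. Of 46 assembly factors, 1 rose and 6 fell in CAL-27 (2.17% and 13%) and 3 rose and 11 fell in SCC-15 (6.52% and 23.9%; 4 and 6 without the libraries numbered 1), and SCO1, which delivers copper to MT-CO2, fell from 73.1, 71.0 and 74.2 to 50.3, 53.5 and 52.3 CPM in SCC-15 (-0.48 ± 0.05; edgeR adjusted p = 1.04e-11). Of 23 genes of mitochondrial RNA processing and stability, 1 rose and 6 fell in CAL-27 (4.35% and 26.1%) and 1 rose and 11 fell in SCC-15 (4.35% and 47.8%; 0 and 6 without the libraries numbered 1). MTPAP, the polymerase that adds A tails to mitochondrial RNA, was at 20.3, 20.8 and 20.2 CPM in SCC-15 controls and 12.8, 13.5 and 14.7 CPM with knockdown (-0.58 ± 0.10; edgeR adjusted p = 2.05e-06). In CAL-27 MTPAP was at 12.8, 12.1 and 11 against 13.5, 9.46 and 11.3 CPM and was not called (-0.07; adjusted p = 0.713), and the changes differed (-0.51; adjusted p = 0.00578). Of 82 mitochondrial ribosomal protein genes, 4 rose and 20 fell in CAL-27, with MRPS6 at -0.58. In SCC-15, 7 rose and 13 fell (2 and 13 without the libraries numbered 1), with MRPL45 at -0.50. The shares lower were 24.4% in CAL-27 and 15.9% in SCC-15, the latter near that of all tested genes.

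Regulators of the mitochondrial genome and of biogenesis changed in few members, at or under the shares of all tested genes in both lines. Of 15 genes of mitochondrial DNA replication and transcription, 0 rose and 1 fell in CAL-27, namely TFAM, which packages the genome and starts its transcription, from 94.7, 90.6 and 94.2 to 81.6, 77.6 and 75.5 CPM (-0.25 ± 0.05; edgeR adjusted p = 9.10e-06). In SCC-15, 2 rose and 2 fell (1 and 1 without the libraries numbered 1), and TFAM was not called (-0.04). Of 9 tested biogenesis regulators, 1 rose in CAL-27, the coactivator PPARGC1B, from 20.1, 20.1 and 19 to 35.2, 31.9 and 34.2 CPM (0.77 ± 0.07, edgeR adjusted p = 7.84e-15). In SCC-15, YY1 alone rose (0.12), and 0 were called without the libraries numbered 1. The values of the 9 in SCC-15 ranged from -1.24 to 0.12, and the lowest was not called. Between the lines, 1 of the 9 had a higher and 1 a lower change in SCC-15. These are 11.1% each, beside 13.3% and 12.1% of all tested genes. Of 18 genes of the citric acid cycle and pyruvate dehydrogenase, 4 rose and 2 fell in CAL-27 (22.2% and 11.1%) and 2 rose and 7 fell in SCC-15 (11.1% and 38.9%; 2 and 4 without the libraries numbered 1), with citrate synthase (CS) at -0.25. Of 20 tested genes of import, porins, chaperones and nucleotide carriers, 2 rose and 5 fell in CAL-27 (10% and 25%) and 5 rose and 4 fell in SCC-15 (25% and 20%; 2 and 3 without the libraries numbered 1), where the import receptor TOMM20 fell by 0.25.

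Other transcripts of the mitochondrial genome were also read. Of the 22 mitochondrial tRNA genes, 15 were tested, of which 4 rose and 1 fell in CAL-27 (26.7% and 6.67%, beside 11.6% and 15.7% of all tested genes) and 2 rose and 3 fell in SCC-15 (13.3% and 20%, near the 13.4% and 14.3% of all tested genes). Without the SCC-15 libraries numbered 1, 0 rose and 2 fell there. The 4 that rose in CAL-27 were among the 5 tested tRNAs of the minus strand, and 0 of the 10 tested plus-strand tRNAs rose, a split made after the values were seen. MT-TY went from 7.38, 7.62 and 6.94 to 17.2, 16.2 and 14 CPM in CAL-27 (1.11 ± 0.13; edgeR adjusted p = 3.06e-11), and from 13.5, 10.7 and 9.62 to 9.45, 8.99 and 6.48 CPM in SCC-15 (-0.44 ± 0.13; edgeR adjusted p = 0.00491). MT-TN went from 50.9, 44.4 and 61.2 to 92.3, 80.4 and 86.1 CPM in CAL-27 (0.73 ± 0.08; edgeR adjusted p = 1.17e-06), and rose in SCC-15 too (0.35). Without the SCC-15 libraries numbered 1, edgeR called neither MT-TY (-0.40; adjusted p = 0.0535) nor MT-TN (0.35; 0.176) in that line. These 2 tRNAs are shown because they had the smallest adjusted p of the list in CAL-27 (GRCh38, GENCODE transcripts, minus strand).
MT-TY, chrM:5826-5891: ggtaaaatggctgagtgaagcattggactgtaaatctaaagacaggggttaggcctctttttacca
MT-TN, chrM:5657-5729: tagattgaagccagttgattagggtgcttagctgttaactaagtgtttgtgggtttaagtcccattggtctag
A mature tRNA has no A tail, and whether these reads came from tRNAs, from longer antisense RNA or from reads counted on the other strand was not tested. The libraries were made to keep strand, but the strand setting of the counting is not given in the sources used here, so MT-ND6 and these genes cannot be told apart from transcripts of the opposite strand.

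Copies of mitochondrial genes in the nuclear genome could take reads from the members. The table lists 407 such lines, of which 6 were tested, and together they held 0.0258% to 0.042% of all counts in a library. With them added, the ratio of mitochondrial to nuclear messages was 8.25 in place of 8.17 in CAL-27 control library 1. MTATP6P1 was the one called, in SCC-15, from 157, 129 and 116 to 99.6, 93.7 and 91.7 CPM (-0.50 ± 0.14; edgeR adjusted p = 0.0252), and it was not called without the libraries numbered 1 (-0.40; 0.113).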

How the data were processed

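The authors deposited raw read counts per gene for 12 libraries, as whole numbers in 1 table. Per the submitters' processing notes, reads were trimmed with Trim Galore 0.6.6, aligned to hg38 with STAR 2.7.7a and counted with featureCounts 2.0.1. For the annotation release and the strand setting of the counting, the record is: not given in the sources used here. Per the labels' protocols the RNA was poly(A)-selected and the libraries kept strand. Of 58735 lines, 27 carry a date in place of a symbol (0.183% of counts), and 1568 repeat a symbol.

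Counts were tested with edgeR 4.0.16 (R 4.3.3; robust quasi-likelihood fit, filterByExpr, TMM, 4 group means over 12 libraries, 8 residual degrees of freedom), with Benjamini-Hochberg adjustment over all 16946 tested genes. SE is the log2 fold change divided by the square root of F. The same steps were tested on simulated data. Alternatives were other scalings and filters, DESeq2 1.42.0, each line alone, a replicate block and fits without libraries. The members and gene lists were chosen with earlier results of these data known. All mitochondrial members are named. Nuclear genes are named where called in both lines, or among the 5 largest non-overlapping changes per contrast and direction, and list genes where they had one of the 2 smallest adjusted p per knockdown contrast; other nuclear members are named only so that all 56 are accounted for. Transcript lengths and overlaps came from GENCODE 29.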

Additional observations from a re-analysis of the deposited data

Results flagged for a closer look

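The difference between the 2 knockdown changes (SCC-15 change minus CAL-27 change, log2, edgeR adjusted p under 0.05) passed in 6 mitochondrial and 13 nuclear members. Of the mitochondrial members 0% were higher and 40% lower, and of the nuclear members 7.32% and 24.4%. Of all tested genes 13.3% were higher and 12.1% lower (25.4% together). Given here are those 6 and the nuclear members with the largest values in each direction. The difference was -0.36 for MT-CO1, -0.59 for MT-CO2, -0.28 for MT-CO3, -0.38 for MT-ATP6, -1.42 for MT-RNR1 and -2.16 for MT-RNR2. Among genes listed with complex I it was -0.41 for NDUFA4, -0.48 for NDUFV1, -0.96 for NDUFV2, 0.25 for NDUFB10 and 0.47 for NDUFC2. In complexes III and IV it was -0.71 for UQCRB, -0.33 for COX6A1 and 0.22 for COX7A2. The NDUFV2 value was lost in 4 of 19 alternatives, those without CAL-27 control library 1, CAL-27 shTTK library 2, SCC-15 shTTK library 1 or both SCC-15 libraries numbered 1 (adjusted p up to 0.0961), and the NDUFC2 value in 2, without CAL-27 shTTK library 3 (adjusted p = 0.0534) or SCC-15 shTTK library 3 (0.0685).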

How the results depend on the processing

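No called value of a member changed sign in any alternative. Values not called did: without both SCC-15 libraries numbered 1, MT-ND5 between the control cells went from 0.10 to -0.0878 and was called lower, and MT-ND1 there and NDUFB3, NDUFB7, NDUFB9 and CYC1 in the SCC-15 knockdown changed sign near 0. Without those libraries the CAL-27 mitochondrial counts were 6 higher and 2 lower (2 and 1 with all), the SCC-15 counts 0 and 12 (1 and 7), the genes with a lower change in SCC-15 numbered 12 (6), those higher in SCC-15 controls 2 (1), and SCC-15 nuclear increases 6 (11). With each line fitted alone the CAL-27 counts were also 6 and 2. DESeq2 called 0 mitochondrial genes higher in SCC-15. Without both rRNAs the mitochondrial share was 4.09% in CAL-27 controls and 4.29% with knockdown. For pairing, each library's deviations from its group mean were taken over all tested genes. Between same-numbered control and shTTK libraries of a line these deviations correlated at -0.0197 to 0.0345. For 4 of 12 libraries the own number correlated best among the 3 libraries of the other group, a count that random numbering would also give on average. This does not settle pairing for the mitochondrial genes, since both SCC-15 libraries numbered 1 were high in some (MT-ND6 by 0.98 and 0.96, log2). With the replicate block the mitochondrial counts were 5 higher and 2 lower in CAL-27 and 13 lower in SCC-15. Those 13 held MT-CYB and all 7 complex I messages but not MT-RNR1 (edgeR adjusted p = 0.117). The block also gave 1 gene with a higher change in SCC-15 and 2 higher in SCC-15 controls. Shares of all tested genes under the block, and with each line fitted alone, are not given here. The same holds for CAL-27 without the SCC-15 libraries numbered 1.

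Leaving out 1 library at a time, mitochondrial genes higher and lower numbered 1 to 3 and 1 in CAL-27, 0 to 1 and 4 to 9 in SCC-15, 0 to 1 and 3 to 7 for the difference and 1 to 2 and 8 to 9 between controls. Nuclear genes numbered 12 to 16 and 2 to 4, 7 to 12 and 6 to 7, 2 to 3 and 8 to 12, and 14 to 17 and 16 to 18. The mitochondrial share was 4.26% to 4.30%, 4.495% to 4.60%, 2.96% to 3.42% and 2.34% to 2.51% in CAL-27 control, CAL-27 shTTK, SCC-15 control and SCC-15 shTTK, and the ratio 8.24 to 8.34, 7.96 to 8.20, 5.51 to 6.08 and 4.59 to 4.89. A group left with 2 libraries borrows its spread from the others.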
